A study of Lymantria dispar dispar and Lymantria dispar asiatica with 30 samples.

Results

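Asian spongy moth (ASM) and European spongy moth (ESM) female pupae were compared 5 days after pupation, across all genes of the deposited expression table. The 6 libraries of that day, 3 ASM (strain label RM) and 3 ESM (strain label CT), were chosen by strain and day among 30 libraries in all, 3 pupae of each strain on day 1, 3, 5, 8 or 11. All libraries were made from the poly(A) RNA of single whole pupae with a directional kit and sequenced on an Ion Proton. The ASM pupae came from a laboratory colony fed 0.21 g of iron phosphate per litre of diet, and the ESM pupae from another colony fed 0.13 g per litre of the same wheat germ diet. Both colonies had been kept in the laboratory for many generations, eggs of many females were mixed within a colony, and larvae of both were reared at the same temperature, humidity and light cycle. With 1 colony per strain and a diet of its own for each, strain, colony and diet cannot be told apart. Nothing in the labels says that the pupae were of separate broods, so the p-values measure the spread among these pupae. Because whole pupae were extracted, fewer cells of a type and less RNA per cell cannot be told apart either. Reads of both strains were aligned to a draft ASM genome, and the effect of sequence differences between the strains on the counts was not tested.

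Females of ASM fly, while those of ESM bear wings but are typically unable to sustain flight. Wings, flight muscle and the adult nervous system are built during the pupal stage, when most larval tissues are broken down and adult tissues grow from imaginal cells. In moths this remodelling is paced by ecdysone pulses, and programmes such as cuticle deposition switch on for short windows, so the day of sampling decides which programmes a comparison can see. Day 5 falls between the early days after pupation and day 8.

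The deposited values were variance-stabilised (VST), and whole read counts were recovered from them. Recovered totals at day 5 were 5200249, 5578385 and 5729465 reads for ASM pupae 1 to 3. For ESM pupae 1 to 3 they were 2723687, 2840870 and 4937529 reads, so that ESM pupae 1 and 2 were the shallowest of the day and had 2197 and 2130 genes at a count of 0, against 1141 to 1307 in the ASM pupae and 1235 in ESM pupa 3. Normalised counts were corrected for depth by the library's size factor, and differences are ASM minus ESM in VST units with their standard error (SE). A given fold change is not a fixed step on this scale. A doubling adds 0.26 VST units when it starts from 1 count, 0.98 when from 10, 1.65 from 100 and 1.13 from 1000. Where a group was at 0 the ratio is a lower bound, computed as if each of its libraries held 3 reads, the most that a count of 0 allows. Intervals of ratios cover counting error at 95% only. Gene names were those of the study's supplementary gene tables and covered 621 of the 19652 genes tested, of which 568 had a name other than an uncharacterised protein. Those tables list genes that the study selected in part on these libraries, so the share of named genes that differed is not independent evidence.

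At day 5 the transcripts of 488 genes, 2.48% of those tested, differed between the strains at an adjusted p under 0.05 (limma, Benjamini-Hochberg over all genes). Of these, 283 (1.44% of all genes) were more abundant in ASM than ESM, and 205 (1.04%) were less abundant. Only 54 of the 488 had a name other than an uncharacterised protein, 32 of them higher and 22 lower in ASM. What the rest encode was not examined. The named genes encoded many kinds of proteins. They included an RNA-binding protein with its actin-regulating partner, glycoside-splitting enzymes, proteins that bind microbial sugars, and many products of mobile elements. The 3 ASM and 3 ESM pupae did not overlap in 469 of the 488 genes, beside 3165 genes (16.1%) over the whole table. Since the 488 were called on the same pupae, this lack of overlap is not further evidence. The median size of the difference among the 488 was 1.75 VST units. The median signed difference over all genes was 0.02. Most of these transcripts were scarce, with median normalised counts of 17.5 for those higher in ASM and 18.5 for those lower, and 94 and 70 of them, respectively, averaged under 10. Transcripts of 35 genes were at 0 in the 3 ESM pupae with more than 3 reads in each ASM pupa, and 12 showed the reverse, while ESM pupae 1 and 2 were also the shallowest libraries of the day. In simulated data the fit that gave the 488 exceeded its threshold of false calls for scarce transcripts and those silent on other days. A fit of the recovered counts (limma-voom), which made fewer false calls there, called 190 genes (0.967%), 89 higher and 101 lower in ASM. Of those, 189 were among the 488. With the reads thinned to the smallest library before that fit the count was 143. With the 6 day 5 libraries alone, which leaves fewer samples for the spread, limma called 41 genes, 31 of them among the 488. Without ASM pupa 1 the count was 311. At an unadjusted p under 0.05 there were 2844 genes.

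**Figure D1:**
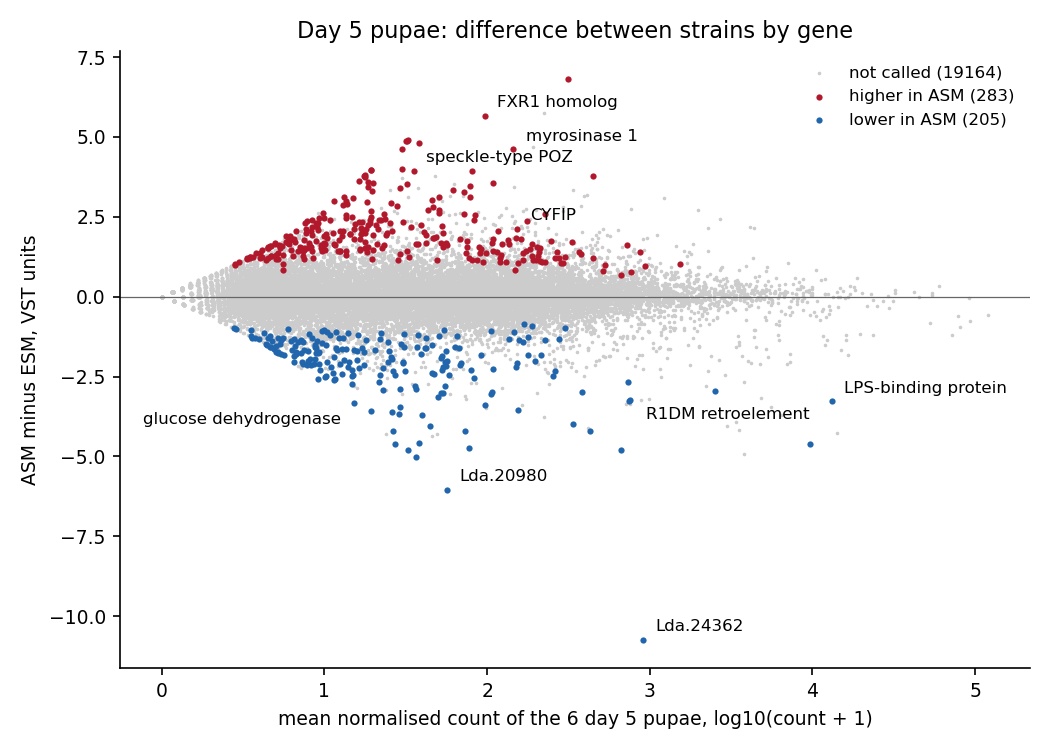
Difference between the strains at day 5 for each of the 19652 genes tested (vertical axis, ASM minus ESM in VST units) against the mean normalised count of the 6 pupae on a log10(count + 1) axis. Grey points were not called, and coloured points are the 283 genes higher and the 205 lower in ASM; the called genes spread over low and intermediate counts, and a few lie far below 0.

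The homolog of fragile X mental retardation protein 1 (Lda.6669) differed most among the described genes more abundant in ASM. Proteins of this family bind messenger RNA and control its translation, in insects above all in neurons and muscle. Its normalised counts were 182, 181 and 189 in the ASM pupae and 6.75, 12.5 and 4.52 in the ESM pupae. The ASM pupae lay close together and far above every ESM pupa, 23.3 times as high on the means, with a difference of 5.67 ± 0.43 VST units (SE, adjusted p = 2.4e-09). The cytoplasmic FMR1-interacting protein (CYFIP, Lda.32537), which binds proteins of that family and is a subunit of the WAVE complex that switches on actin branching, was also more abundant in ASM. It had 219, 181 and 253 normalised counts in ASM and 94.5, 77 and 90.3 in ESM, without overlap. The ratio was 2.49 and the difference 2.13 ± 0.29 VST units (adjusted p = 1e-04).

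Actin-related protein 2 (Lda.33768), a subunit of the Arp2/3 complex that the WAVE complex activates, had 98.3, 67.6 and 142 normalised counts in ASM and 54, 41.6 and 39.5 in ESM. The ASM pupae were all above the ESM pupae, at 2.28 times the mean (1.55 VST units, adjusted p = 0.01), though the call was lost without ASM pupa 3 (adjusted p = 0.086). A gene model of Bx42 (Lda.8787), the Drosophila member of a family of splicing and transcription cofactors, had 374, 306 and 315 normalised counts in ASM and 169, 179 and 137 in ESM. It was 2.06 times as high in ASM (1.75 VST units, adjusted p = 0.024), and the adjusted p was 0.1 without ASM pupa 1, 0.055 without ASM pupa 3 and 0.094 without ESM pupa 3. A second model of Bx42 (Lda.40030) lay the other way, at -1.67 VST units, and did not pass the test (adjusted p = 0.058), and counting could have split reads between the pair of models. The fragile X homolog, CYFIP and Lda.8787 are 3 of the 4 models in a list drawn up for these regulators. That list was made with earlier results of these data known, so its share of called genes is not evidence. Of all described genes 9.51% were called, and of all genes 2.48%. CYFIP and actin-related protein 2 were the only called members of the list of 30 actin and cell adhesion genes (6.67%), whose median difference of -0.05 was near that of all genes.

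Among enzymes that act on plant compounds and sugars, the transcript that stood out was myrosinase 1 (Lda.25547). Myrosinases are glycoside hydrolases, known in some beetles and aphids for splitting the glucosinolates of the host plant. The ASM pupae had 280, 229 and 264 normalised counts and the ESM pupae 29.2, 22.9 and 33.9. These groups were far apart, with a ratio of 8.98 and a difference of 4.62 ± 0.54 VST units (adjusted p = 1e-05). A model of lactase-phlorizin hydrolase (Lda.9902), a glycoside hydrolase best known from the mammalian gut, had 43.6, 23.9 and 14.7 normalised counts in ASM and 2.25, 0 and 0 in ESM. A single ESM read lay behind the ratio of 36.5 (counting interval 8.6 to 1970), and the difference was 3.09 ± 0.49 (adjusted p = 0.00064).

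Glucose dehydrogenase (Lda.24583), which oxidises glucose and in Drosophila is known from the reproductive tract and from adult emergence, went the other way. It was listed at 0, 0.995 and 0 in the ASM pupae, against 18, 33.3 and 32.7 in the ESM pupae. That is an ASM to ESM ratio of 0.0118 (counting interval 0.000282 to 0.0659), with a difference of -3.32 ± 0.37 VST units (adjusted p = 5.5e-06). Esterase E4 (Lda.6794), a carboxylesterase named after the enzyme that sequesters insecticides in aphids, was also lower in ASM, with 5.06, 4.97 and 2.94 against 40.5, 8.32 and 27.1 (-1.98, adjusted p = 0.014). Its adjusted p was 0.062 without ASM pupa 3, 0.081 without ESM pupa 1 and 0.06 without ESM pupa 3, and it was 0.068 by limma-voom. An ABC transporter of the multidrug resistance family (Lda.28033) was 2.47 times as high in ASM, with 83.1, 94.5 and 56.8 against 40.5, 35.4 and 19.2 (1.69, adjusted p = 0.025). Its adjusted p was 0.099 without ASM pupa 1, 0.083 without ASM pupa 2 and 0.14 without ESM pupa 3. In the list of detoxification enzymes and transporters 3 of 20 rose and 2 fell (25%, beside 9.51% of described and 2.48% of all genes), and the median of -0.30 lay below 0 although more members were called higher.

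Of 19 genes of sugar and energy metabolism, 2 rose and none fell, a share of 10.5% that was near the 9.51% of all described genes. The facilitated trehalose transporter Tret1-2 (Lda.33282), a carrier of the main sugar of insect blood, had 54.7, 79.6 and 46 normalised counts in ASM and 27, 12.5 and 10.2 in ESM. It was 3.63 times as high in ASM (2.25 ± 0.46 VST units, adjusted p = 0.0064). The trehalose transporter model Tret1 (Lda.25670) of the same list averaged 42 in ASM and 38.5 in ESM and was not called (adjusted p = 0.93). A model of fructose-bisphosphate aldolase (Lda.1382), an enzyme of glycolysis, had 17.2, 13.9 and 7.83 in ASM and 0, 0 and 1.13 in ESM. Again 1 ESM read decided the ratio of 34.5 (counting interval 3.96 to 949), and the difference of 2.13 (adjusted p = 0.0063) was not called by limma-voom (adjusted p = 0.084).

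**Figure D2:**
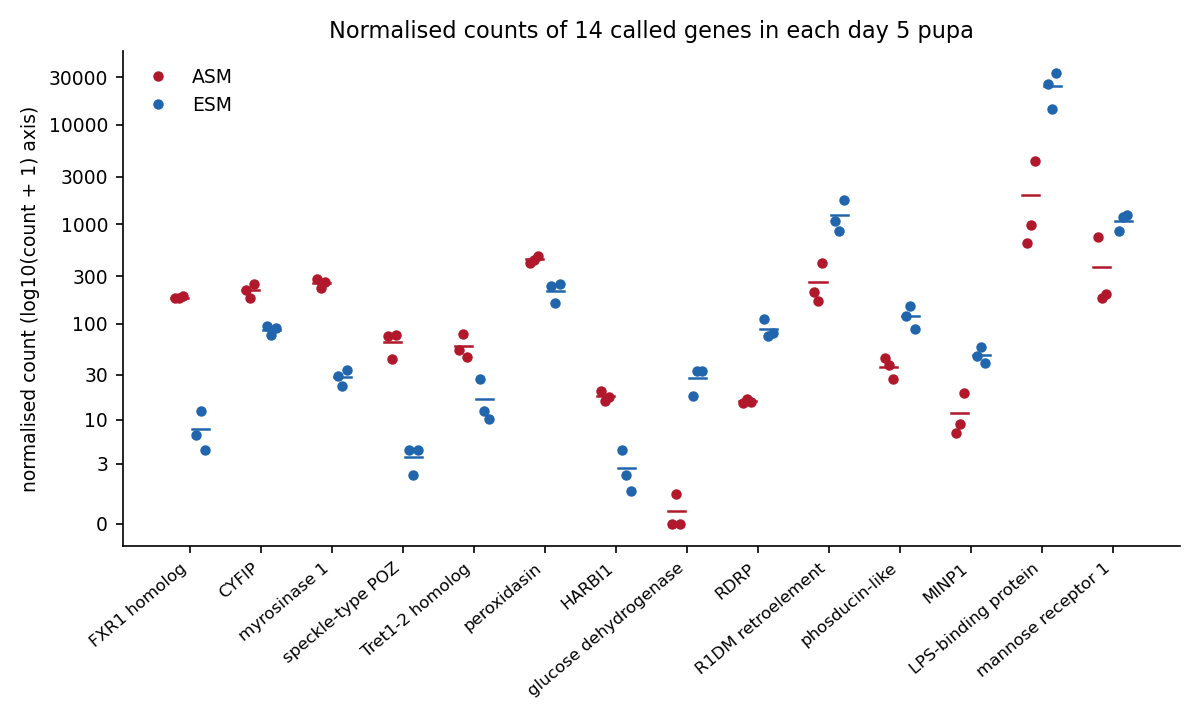
Normalised counts of 14 called genes in each of the 6 day 5 pupae, on a log10(count + 1) axis. Each point is a pupa and colours separate ASM from ESM; in each of these genes the 3 ASM pupae lie all above or all below the 3 ESM pupae.

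A pair of proteins that recognise microbes were more abundant in ESM. The hemolymph lipopolysaccharide-binding protein (Lda.11807), named after a cockroach lectin that binds the surface sugar of bacteria, was the most abundant transcript among the described genes that differed. It had 649, 984 and 4302 normalised counts in the ASM pupae and 25445, 14396 and 32917 in the ESM pupae. All ESM pupae were higher, 12.3 times on the means (-3.27 ± 0.71, adjusted p = 0.01). Among the ASM pupae themselves the highest and lowest were far apart, and without ASM pupa 1 the adjusted p was 0.084. A model of macrophage mannose receptor 1 (Lda.24055), a C-type lectin that in mammals takes up microbes, had 740, 184 and 199 in ASM and 861, 1184 and 1240 in ESM. ESM was 2.93 times as high (-2.68 ± 0.66, adjusted p = 0.025). ASM pupa 1 lay close to the ESM pupae, and the adjusted p was 0.1 without ASM pupa 2, 0.13 without ASM pupa 3, 0.084 without ESM pupa 2 and 0.078 without ESM pupa 3. The serine protease gd (Lda.3881), which in Drosophila starts the protease cascade of the dorsoventral axis, was higher in ASM, with 39.5, 7.96 and 14.7 against 2.25, 2.08 and 4.52 (1.90, adjusted p = 0.019). Its adjusted p was 0.16 without ASM pupa 1, 0.051 without ESM pupa 1 and 0.07 without ESM pupa 2, and limma-voom did not call it. These 3 were the called members among 11 immune recognition and protease genes (27.3%, beside 9.51% of described and 2.48% of all genes), with a list median of 0.29.

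Of the gene lists examined, that of mobile elements held the most called genes. They encode the proteins by which retrotransposons and DNA transposons copy or move themselves, and are expressed when an element's copies are transcribed. Of 58 gene models tested, 15 were higher and 8 lower in ASM, or 39.7%, beside 9.51% of all described genes and 2.48% of all genes. The median difference of the list was 0.88. Since reads of such multi-copy families cannot be assigned to a copy with certainty, and the genome is from ASM, each of these values is uncertain. Limma-voom called 11 of the 23.

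All 6 models of Copia protein, the polyprotein of a retrotransposon family first known from Drosophila, were higher in ASM. Over the 6 models the ASM pupae had 20.6 to 42.5 normalised counts and the ESM pupae 0 to 12.5, and the differences were 1.80 (Lda.323) to 2.40 (Lda.6744). In 3 of them ESM pupa 1, the shallowest library of the day, was at 0. The adjusted p passed 0.05 without that pupa in Lda.6744 (0.095), Lda.12051 (0.075) and Lda.26923 (0.067), and without ASM pupa 1 in Lda.6744 (0.069) and Lda.12051 (0.066). Limma-voom called Lda.26979 and Lda.31077 of the 6. How far these models share reads was not tested.

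Among the 9 models of the Pol polyprotein of retrotransposon TNT 1-94, 6 were higher and 2 lower in ASM. The models Lda.31508 and Lda.33465 ran in parallel, with 47.6, 115 and 15.7, and 40.5, 102 and 17.6, in the ASM pupae and the same 2.25, 2.08 and 4.52 in the ESM pupae. Their differences were 3.53 and 3.41 VST units (adjusted p = 0.016 and 0.018), and in both ASM pupa 2 was the highest. In Lda.31508 the call was lost without ASM pupa 1 (0.054), ASM pupa 2 (0.082) or ESM pupa 2 (0.056), and in Lda.33465 without the same pupae (0.051, 0.087 and 0.06). Against these, Lda.36136 of the same family had 1.01, 0.995 and 0 in ASM and 36, 20.8 and 51.9 in ESM, a difference of -3.57 (adjusted p = 0.025). That call was lost without ASM pupa 1 (0.067), ASM pupa 3 (0.086), ESM pupa 1 (0.057) or ESM pupa 3 (0.096). Limma-voom called none of the 3, with adjusted p of 0.18 to 0.27.

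Other mobile elements differed more evenly among the pupae. The putative nuclease HARBI1 (Lda.2947), derived from a DNA transposon, had 20.3, 15.9 and 17.6 in ASM and 4.5, 2.08 and 1.13 in ESM (ratio 6.98, difference 2.00 ± 0.31, adjusted p = 0.00056). A protein of a type-1 retrotransposon (Lda.29214) was by far the most abundant of them, with 209, 171 and 410 in ASM and 1088, 864 and 1765 in ESM. It was 4.71 times as high in ESM (-3.24 ± 0.65, adjusted p = 0.0058). Of the 6 models of the polymerase of the jockey element, 1 was higher and 3 were lower in ASM, among the latter Lda.31119 with 3.04, 0.995 and 3.92 against 31.5, 18.7 and 24.8 (-2.49, adjusted p = 0.0019). Another retrotransposon polyprotein (g9920) had 2.03, 0.995 and 1.96 in ASM and 15.7, 25 and 10.2 in ESM (-2.04 ± 0.28, adjusted p = 0.00011). Whether the families differed from each other was not tested.

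**Figure D3:**
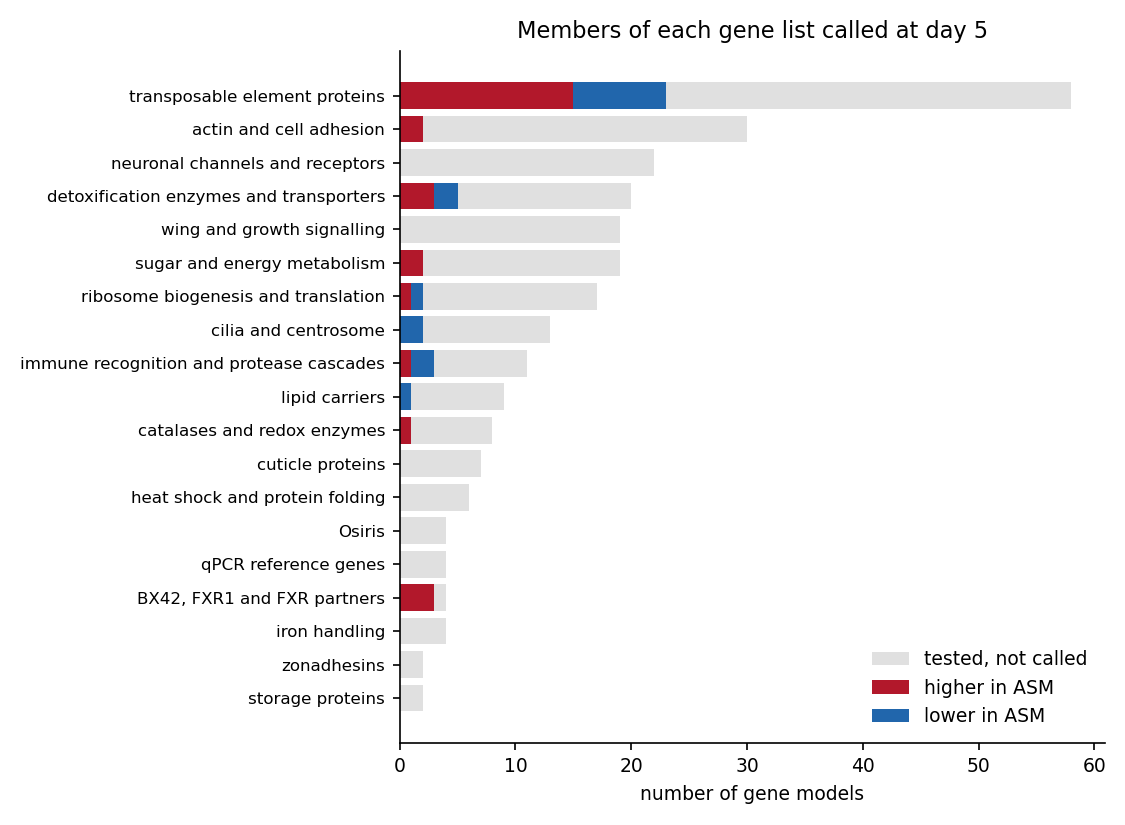
Number of gene models tested in each gene list (grey bars) and, within them, the number called higher or lower in ASM at day 5 (coloured parts). The transposable element list holds 15 higher and 8 lower of 58, and several lists, among them wing and growth signalling and neuronal channels, hold none.

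Further genes more abundant in ASM acted in protein turnover, glycan synthesis and the extracellular matrix. A speckle-type POZ protein (Lda.26330), of the family of adaptors that bring substrates to cullin ubiquitin ligases, had 75, 43.8 and 76.3 normalised counts in ASM and 4.5, 2.08 and 4.52 in ESM. It was 17.6 times as high in ASM (3.94 ± 0.38, adjusted p = 3.4e-07). Beta-1,3-galactosyltransferase 6 (Lda.13851), which builds the linker of proteoglycan chains, had 71.9, 83.6 and 50.9 against 6.75, 10.4 and 29.4 (2.70 ± 0.49, adjusted p = 0.0025). Peroxidasin (Lda.18515), a peroxidase that cross-links collagen of basement membranes, had 413, 443 and 485 against 238, 162 and 250. That was a ratio of 2.06 with tight groups (1.71 ± 0.29, adjusted p = 0.0012). It was the only called member of 8 redox enzymes (12.5%, beside 9.51% of described genes). A saccharopine dehydrogenase-like oxidoreductase (Lda.17133) had 37.5, 50.7 and 31.3 against 9, 6.24 and 10.2 (2.32, adjusted p = 0.012), and an adjusted p of 0.055 without ESM pupa 2 and of 0.1 by limma-voom.

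Smaller differences toward ASM were found in genes of organelles and ribosomes. An assembly factor of the mitochondrial ATP synthase (Lda.21546) had 235, 209 and 262 normalised counts in ASM and 135, 146 and 138 in ESM, 1.69 times as high with no overlap (adjusted p = 0.0048). The mitochondrial sulfite oxidase (Lda.24281), which clears sulfite, was 2.53 times as high (1.68, adjusted p = 0.013), with an adjusted p of 0.065 without ASM pupa 1 and 0.067 without ESM pupa 2. The lipid kinase that makes the signalling lipid of late endosomes (Lda.15573) was 1.96 times as high (1.66, adjusted p = 0.026). That call was lost without ASM pupa 1 (0.14), ASM pupa 3 (0.055), ESM pupa 2 (0.072) or ESM pupa 3 (0.13). The homolog of nucleolar complex protein 3 (Lda.9525), known for ribosome assembly in yeast, was 2.50 times as high (1.68, adjusted p = 0.018), and its adjusted p was 0.066 without ASM pupa 1, 0.065 without ASM pupa 3 and 0.13 without ESM pupa 2. The other called gene of 17 in ribosome biogenesis and translation (11.8% called, near the 9.51% of described genes) was lower in ASM. The homolog of digestive organ expansion factor (Lda.34172), needed for ribosome assembly in zebrafish, had 265, 196 and 259 against 346, 391 and 353 (-0.99, adjusted p = 0.018). Its adjusted p was 0.09 without ASM pupa 2 and 0.08 without ESM pupa 2. Limma-voom called neither of these ribosome genes (adjusted p = 0.063 and 0.065).

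Genes less abundant in ASM included both models of phosducin-like protein, a co-chaperone that helps fold G protein subunits. Lda.14646 had 44.6, 37.8 and 27.4 in ASM and 119, 152 and 88.1 in ESM (-2.31 ± 0.37, adjusted p = 0.00071). Lda.9383 had 24.3, 16.9 and 37.2 against 87.7, 93.7 and 70 (-2.18 ± 0.43, adjusted p = 0.0054). In each model every ESM pupa was above every ASM pupa, at 3.27 and 3.21 times the mean. The phosphatase MINP1 (Lda.34641), which removes phosphates from inositol polyphosphates, had 7.09, 8.95 and 19.6 against 47.2, 58.3 and 39.5 (-2.32 ± 0.45, adjusted p = 0.0041). A model described as an RNA polymerase in the study's tables, under a garbled name (Lda.26795), had 15.2, 16.9 and 15.7 against 112, 74.9 and 80.2 (-3.01 ± 0.48, adjusted p = 0.00071).

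Among genes of cilia and centrosomes, 2 of 13 were lower in ASM and none was higher (15.4%, beside 9.51% of described and 2.48% of all genes), although the median of the list was 0.23. The homolog of the intraflagellar transport protein IFT172 (Lda.27201), which carries cargo along cilia, had 8.1, 15.9 and 9.79 in ASM and 33.7, 87.4 and 22.6 in ESM (-2.09, adjusted p = 0.011), and its adjusted p was 0.065 without ASM pupa 1 and 0.092 without ESM pupa 2. Tubulin beta-4 (Lda.3374) was at 0 in all ASM pupae and at 6.75, 10.4 and 3.39 in the ESM pupae, at least 2.29 times as high in ESM (-1.51, adjusted p = 0.0065; 0.051 without ESM pupa 2). The retinol-binding protein pinta (Lda.5099), which in Drosophila serves the making of visual pigment, had 3.04, 4.97 and 3.92 against 11.2, 27.1 and 14.7 (-1.61, adjusted p = 0.023). It was the only called gene of 9 lipid carriers (11.1%, near the 9.51% of described genes), and its adjusted p was 0.093 without ASM pupa 1, 0.065 without ASM pupa 3 and 0.15 without ESM pupa 2. The metalloproteinase ADAM12 (Lda.17029), a membrane protease, had 43.6, 28.8 and 36.2 against 137, 137 and 113. Its groups were well apart, yet the adjusted p of 0.046 (-2.53) rose to 0.074 to 0.13 whichever pupa was left out. Limma-voom called neither the transport protein (adjusted p = 0.089), nor pinta (0.11), nor ADAM12 (0.11).

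A model of craniofacial development protein 2 (Lda.11221) had 0, 0 and 1.96 normalised counts in ASM and 15.7, 20.8 and 15.8 in ESM (-2.51 ± 0.47, adjusted p = 0.0034). Of 6 models that share the name of 1 uncharacterised protein (LOC110372872), 5 were lower in ASM, and Lda.28528, at -1.13, was not called (adjusted p = 0.063). The largest difference of these was that of Lda.36558, with 26.3, 8.95 and 8.81 against 78.7, 87.4 and 82.4 (-3.13, adjusted p = 0.00043). The call of Lda.3564 (adjusted p = 0.049) was lost without ASM pupa 1 (0.23), ASM pupa 2 (0.052), ASM pupa 3 (0.066), ESM pupa 1 (0.16) or ESM pupa 3 (0.16), and by limma-voom (0.12). Whether these models share reads was not tested. Among all called genes with no overlap, the largest differences toward ESM were in transcripts without a description. Lda.24362 was at 0 in all ASM pupae and at 209, 1490 and 3742 in the ESM pupae, at least 607 times as high, with the ESM pupae themselves far apart. It had enough libraries above the lowest value to be tested only through those 3 pupae, so its difference of -10.74 is given without a test. Lda.20980 was at 0 in ASM and at 155, 117 and 64.4 in ESM (-6.04, adjusted p = 0.025), and its adjusted p was 0.071 without ASM pupa 1, 0.068 without ASM pupa 3, 0.071 without ESM pupa 1 and 0.074 without ESM pupa 2. On the other side, after the fragile X homolog (Lda.6669), Lda.4276 had 40.5, 65.7 and 84.2 in ASM and 0 in ESM, at least 11.6 times as high (4.90, adjusted p = 0.011; 0.053 without ASM pupa 3). Limma-voom called neither Lda.20980 (adjusted p = 0.32) nor Lda.4276 (0.088).

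None of the Osiris, catalase, tweedle, takeout or zonadhesin models that the study names in its text passed the test at day 5. That does not show that their levels were equal. By gene name, the study's expression candidates also include actin-related protein 2, Bx42 and the lipid kinase, for which a model was called above. Osiris proteins are an insect family made mostly by cells that secrete cuticle. The ASM pupae had 2.03, 9.95 and 17.6 normalised counts of osiris 18 (Lda.35031) and the ESM pupae 133, 2.08 and 187. ESM pupa 2 lay within the ASM values while the other ESM pupae were far above (-3.06 ± 1.10, adjusted p = 0.16). Without ESM pupa 2 the adjusted p was 0.001, and it was 0.18 or more without any other pupa. The other 3 Osiris models held 0 to 36.1 normalised counts, with differences of -0.38 to -2.01 and adjusted p of 0.3 to 0.89. The catalases Lda.20862 and Lda.20867, enzymes that split hydrogen peroxide, were at 0 in all ASM pupae and at 0 to 2.26 in ESM (adjusted p = 0.81 and 0.87). Transcripts of the tweedle cuticle protein Lda.15281 were abundant in both strains, with 1247, 2609 and 2295 in ASM and 2921, 3234 and 3177 in ESM. The groups did not overlap and ASM pupa 1 was the lowest, but the difference of -0.66 ± 0.88 did not pass the test (adjusted p = 0.82). The spread behind this test, as for the Osiris and catalase models, was shared by all 10 groups and does not measure day 5 alone. It took in day 8, when the ASM pupae ranged from 434 to 4121 normalised counts of Lda.15281. The takeout gene (Lda.26596), of a family of carriers of small hydrophobic ligands, was at 0 in all 6 pupae, which allows up to 3 reads in each. Both zonadhesin models were low in all pupae (8.1 to 35.4, adjusted p = 0.8 and 0.84), and in Lda.8470 every ESM pupa was above every ASM pupa.

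Iron handling genes were examined because the diets differed in iron, and storage proteins were examined beside them. Strain and diet cannot be told apart, so an effect of the diet was not tested. Ferritin, the iron store of the cell (Lda.14052), had 2977, 2955 and 2955 normalised counts in ASM and 3097, 2932 and 2550 in ESM. With these nearly equal groups the difference was 0.05 ± 0.14 (adjusted p = 0.94). None of the 4 iron handling genes was called, and their differences were -0.38 to 0.76. The sex-specific storage protein 1 (Lda.31784), a larval amino acid store used up in the pupa, had 4.05, 7.96 and 21.5 in ASM and 49.5, 72.8 and 45.2 in ESM. The groups did not overlap, but the difference of -2.73 ± 0.77 did not pass the test (adjusted p = 0.059; 0.044 without ASM pupa 3). Both models of heat shock protein 68, a stress chaperone, were higher in each ESM pupa than in any ASM pupa, with differences of -1.43 and -1.34 (adjusted p = 0.31 and 0.38). None of 19 wing and growth signalling genes, 22 neuronal channels and receptors, 7 cuticle proteins or 6 heat shock and folding genes was called. The 4 reference genes of the study's qPCR (actin, GAPDH, elongation factor 1 gamma, gamma-tubulin) differed by -0.19 to 0.18 VST units, none of them called (adjusted p = 0.61 to 1).

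Day 5 had the fewest called genes of the 5 sampling days in this fit. The count was 721 for the day 1 pupae (3.67% of genes), 1684 for day 3 (8.57%), 1249 for those of day 8 (6.36%) and 963 (4.9%) for day 11. The days were fitted with the same number of pupae and a shared spread, but depth differed between days. The median SD of a gene within a group was 0.385 among ASM and 0.443 among ESM pupae of day 5, and 0.276 to 0.428 in the groups of other days.

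Most of the strain differences of day 5 lay in the same direction on the other days. Of the 283 genes higher in ASM, 230, 244, 250 and 247 were also higher on days 1, 3, 8 and 11, respectively, and 183 on all 4. Of the 205 lower genes, 180, 175, 183 and 172 were lower on those days, and 140 on all 4. Past the test, 54 of the 488 were called in the same direction on all 4 other days and 225 on none. A call in the opposite direction was rare, with at most 2 genes of either set on any other day. Among the 40 described genes named by size, 36 kept their sign on every other day and 10 were called on all 4. Myrosinase 1, for example, differed by 3.77, 4.53, 3.65 and 3.50 VST units on days 1, 3, 8 and 11 (adjusted p of 0.00055 or less). The fragile X homolog (Lda.6669) differed by 4.00, 5.80, 4.08 and 4.48, and CYFIP (Lda.32537) by 1.83, 2.47, 2.12 and 1.91. The other 4 changed sign on 1 or more days. Mannose receptor 1 (Lda.24055) turned from -2.68 at day 5 to 2.60 on day 11 (adjusted p = 0.023). By day 11 its transcript was scarce, averaging 36.1 in ASM and 5.64 in ESM, against 374 and 1095 at day 5. The opposite values of the others did not pass the test, at 0.58 and 0.79 on days 8 and 11 for ADAM12 (Lda.17029), -0.29 on day 11 for aldolase (Lda.1382) and 0.14 on day 1 for a jockey model (Lda.33423). All these days come from the same colonies, and the fits share their spread.

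**Figure D4:**
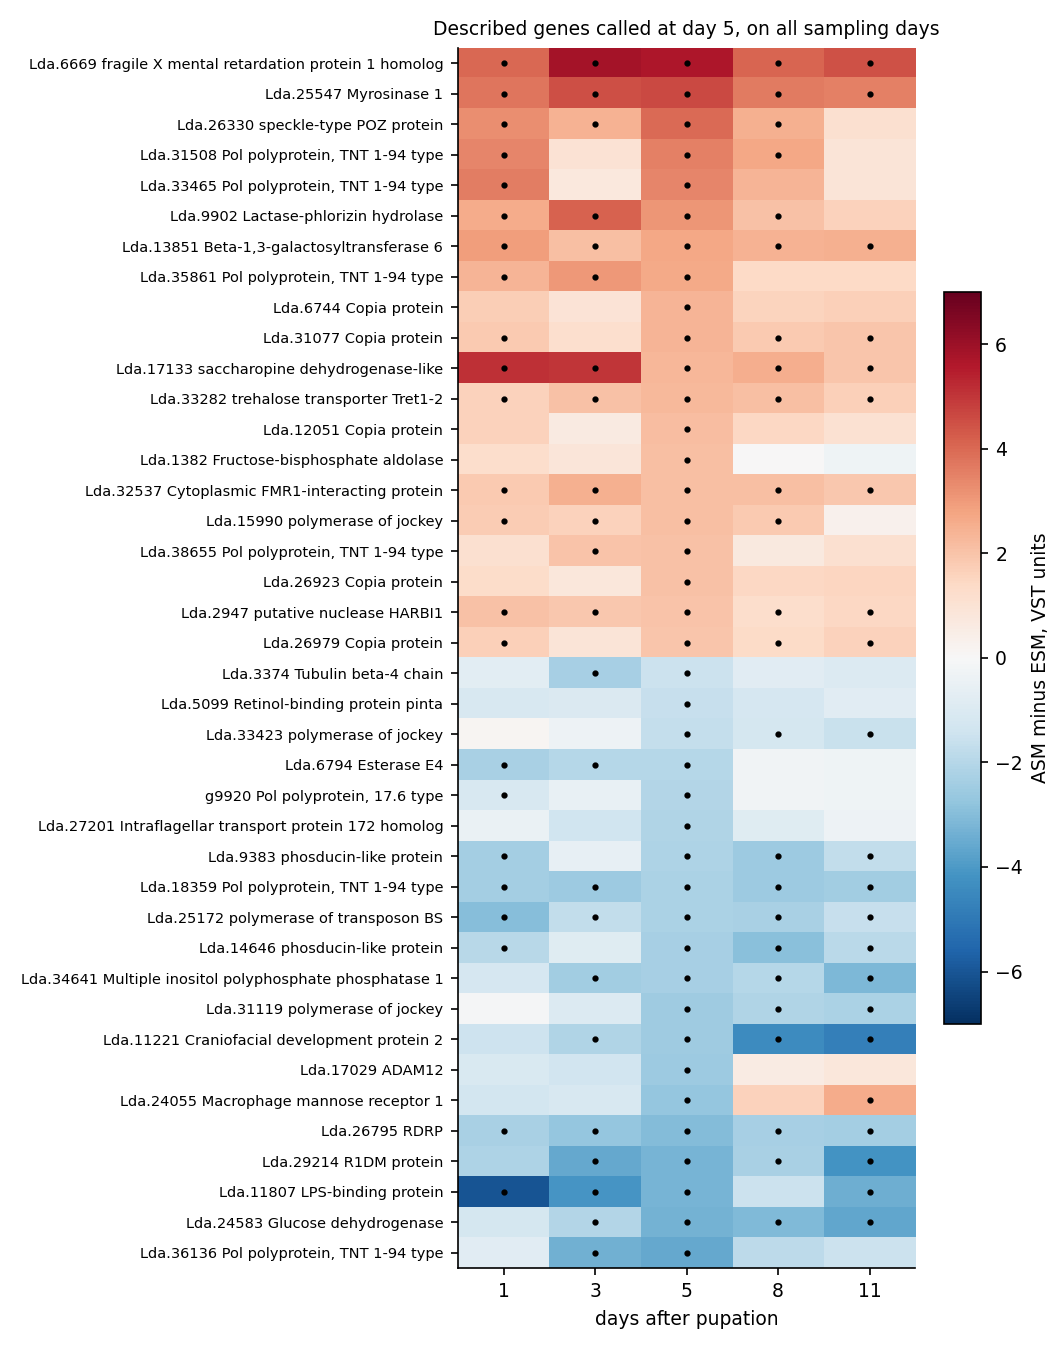
Heat map of the difference between the strains (ASM minus ESM, VST units, colour) for described genes called at day 5, in rows, on the 5 sampling days, in columns, with a dot where the difference was called. Most rows keep one colour across the days, as for the fragile X homolog and myrosinase 1, while mannose receptor 1 turns from -2.68 at day 5 to 2.60 at day 11. The mean counts of mannose receptor 1 on day 11 were low, 36.1 in ASM and 5.64 in ESM.

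Whether a difference was particular to day 5 was tested against the mean of the other 4 days. Only 24 genes (0.122%) passed. The ASM minus ESM difference was more positive at day 5 in 14 of them and more negative in 10. Limma-voom called 10 of the 24 (9 and 1). There were 1960 genes at an unadjusted p under 0.05. None of the 24 had a description, and 15 of them averaged under 3 normalised counts in all 8 groups of the other days. The transcript Lda.29038 had 69.9, 43.8 and 72.4 normalised counts in the day 5 ASM pupae and 0 in the ESM pupae (4.93 against the other days, adjusted p = 8.1e-12). Its groups of the other days averaged at most 1.92. As in the 15 genes as a whole, groups near 0 entered the spread behind that p-value, which does not measure the spread at day 5 alone. Of the 24, 3 had enough libraries above the lowest value to be tested only through day 5 pupae, as had 6 of the 488, so that groups at or near 0 entered the spread of these genes. A pair of them in ESM are given here without a test. In ESM, Lda.12916 was found in the day 5 pupae, at 11.2, 52 and 160, and was at 0 in every other group, and Lda.24362 held 209 to 3742 in those pupae and at most 1.08 in any other. The count depended on single pupae, being 199 without ASM pupa 2 and 68 without ESM pupa 1.

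Between neighbouring days the strain difference shifted in more genes. Against day 3, 276 genes (1.4%) differed, 182 toward a more positive and 94 toward a more negative difference at day 5, and 231 of them were called at day 3 but only 38 at day 5. Clavesin-1 (Lda.26736), a lipid carrier of vesicle traffic, averaged 66.3 normalised counts in ASM and 1199 in ESM on day 3, but 692 and 504 on day 5. The change in difference was 6.07 ± 0.95 (adjusted p = 0.00079). Protocadherin Fat 4 (Lda.19461), a large adhesion protein, went from 44.2 and 434 on day 3 to 284 and 220 on day 5 (5.54 ± 1.05, adjusted p = 0.0057). Trapped in endoderm-1 (Lda.21711), a receptor that guides migrating cells in Drosophila, went from 73.8 and 644 to 197 and 169 (4.76 ± 1.00, adjusted p = 0.014; 0.054 at the highest when a day 5 pupa was left out). In all 3 genes the ASM mean rose and the ESM mean fell from day 3 to day 5. They were chosen, after their values were seen, from 9 described genes called against day 3, several of which shifted the other way. Mitogen-activated protein kinase kinase kinase 4 (Lda.15801) went from 373 and 192 to 217 and 248 (-1.87 ± 0.48, adjusted p = 0.047; 0.094 by limma-voom). The count of 276 rested on single pupae, with 138 genes without ASM pupa 1, 495 without ASM pupa 2, 180 without ASM pupa 3 and 133 without ESM pupa 2. Limma-voom called 117 (104 and 13).

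Against day 8, 191 genes (0.972%) differed, 157 of them called at day 8 and 32 at day 5. Limma-voom called 52, and without ASM pupa 2 there were 294. Osiris 18 (Lda.35031) averaged 9.86 in ASM and 107 in ESM on day 5 but 2559 and 5.52 on day 8, a change of -13.80 ± 1.56 (adjusted p = 3.7e-06). The tweedle gene Lda.15281 averaged 2051 and 3111 on day 5, and 2416 and 17.7 on day 8 (-10.58 ± 1.25, adjusted p = 6.8e-06). The catalase Lda.20862 averaged 0 and 1.13 on day 5, and 2114 and 12.7 on day 8 (-9.85 ± 0.73, adjusted p = 3.4e-09). For that catalase, unlike the other two, limma-voom did not call the change (adjusted p = 0.12). These genes were named by the study on the same libraries and are described here for their day 5 levels. The lectin Lda.24055 averaged 374 and 1095 on day 5, and 96 and 34.5 on day 8 (-4.30 ± 0.93, adjusted p = 0.018), and the adjusted p reached 0.059 when a day 5 pupa was left out and was 0.11 by limma-voom.

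The pupae of day 5 were also placed along the change from day 3 to day 8. Each pupa was projected on the line between the means of both days over 9644 genes that changed between them, with day 3 at 0 and day 8 at 1. The ASM pupae lay at 0.171, 0.414 and 0.267 (mean 0.284 ± 0.122, SD) and the ESM pupae at 0.235, 0.398 and 0.357 (0.33 ± 0.085). The groups overlapped and differed by -0.046 (two-sided exact permutation test, p = 0.7, where 3 against 3 pupae allow no p under 0.1). Pupae of the same strain were spread over this stretch, ASM pupa 1 the earliest and ASM pupa 2 the latest. With the position as a covariate 470 genes were called in place of 488. Over all genes the root mean square distance between pupae was 0.864 to 1.227 VST units within ASM, 0.87 to 1.17 within ESM and 0.918 to 1.353 between the strains, so pupae of 1 strain were often as far apart as pupae of both.

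**Figure D5:**
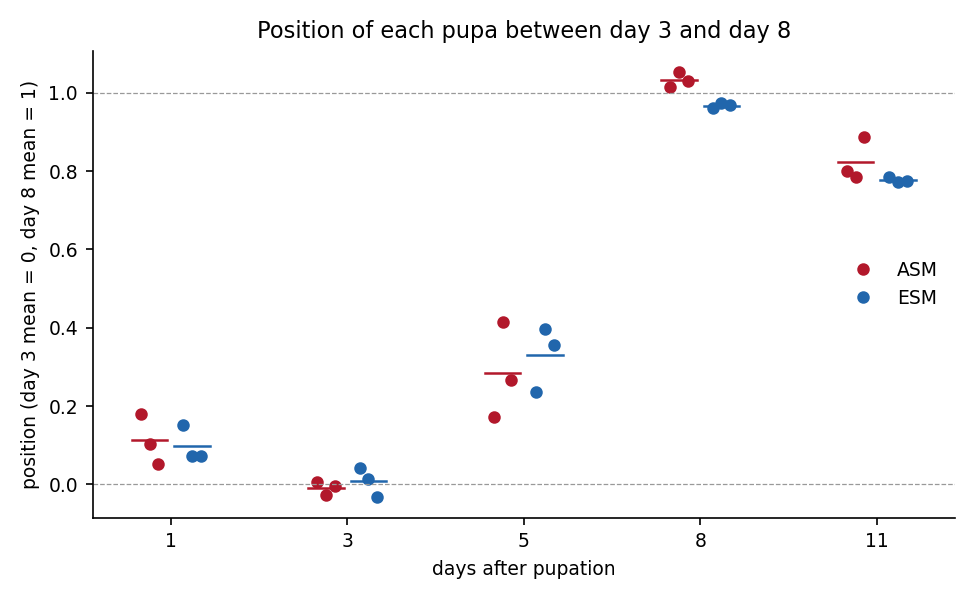
Position of each of the 30 pupae on the line from the day 3 mean (0) to the day 8 mean (1), by days after pupation, with ASM and ESM in different colours. The 6 day 5 pupae lie between 0.171 and 0.414 with both strains intermixed.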

How the data were processed

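Groups, replicate numbers and days were taken from the labels. The diets, and the naming of strain RM as ASM and CT as ESM, came from the study's methods. The authors' tools were FastQC 0.11.5 for read quality, Trimmomatic 0.36 for trimming, HISAT2 for alignment to a draft ASM genome, StringTie for gene models and featureCounts 2.0.0 for read counts, and iflavirus reads were filtered. The deposited values are the authors' variance-stabilised counts made with DESeq2 1.28.1 under R 4.0.2, near a log2 scale at high counts, for 19654 genes in 30 libraries. No genome or gene coordinates were used here.

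The lowest value (-0.52) was taken as a count of 0. The steps between values were turned back into counts with 1 common curve and library size factors (0.445 to 2.06), of which 99.77 to 99.96% per library lay within 0.05 of a whole number. Median-of-ratios factors of those counts lay within 0.021% of these size factors. Totals were 2638704 to 10835883 reads (median 5206830), and no libraries were identical.

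The deposited values were fitted with limma 3.58.1 (R 4.3.3), using 10 group means, 20 residual degrees of freedom, a variance trend and Benjamini-Hochberg adjustment. A gene entered if 3 or more libraries exceeded the lowest value. Contrasts were ASM minus ESM at day 5, the same against the mean of the other days, and against day 3 and day 8. Positions between days 3 and 8 were compared by an exact permutation test. Gene lists were described by counts and medians without a set test. The fits were tested on simulated data, in which the fit used here made more false calls than its threshold for scarce transcripts and for those silent on other days, and limma-voom made fewer. The members, gene lists and tests were chosen with earlier results of these data known, and gene names came from the study's supplementary gene tables.

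The rule for named genes took the 20 described called genes with the largest difference in each direction. It also took the 2 called genes without overlap with the largest difference in each direction, whatever their description. Added to these were Osiris, catalase, tweedle, zonadhesin and takeout models of the study's text and its qPCR reference genes. The 2 members of each list with the largest difference, and all storage and iron genes, completed it. Other called genes named (Bx42, actin-related protein 2, the multidrug transporter, gd, sulfite oxidase, the ATP synthase assembly factor, the lipid kinase, Lda.323, Lda.36558) and those named against other days were chosen after their values were seen. The labels give replicate numbers but no pairing, and the main fit did not pair pupae across strains. Of 15 same-numbered pairs, 6 had deviations correlated over 0.1 (-0.209 to 0.477). Whether same-numbered pupae shared handling was not tested. Alternatives were other values, scalings, filters, weights, thinning, a covariate, a replicate block and leaving out each pupa.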

Additional observations from a re-analysis of the deposited data

Results flagged for a closer look

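The difference between the strains at day 5 departed from the mean of the other 4 sampling days in 24 genes, which was a test of the difference itself (limma, Benjamini-Hochberg over all genes). In 14 of them the ASM minus ESM difference was more positive at day 5 and in 10 more negative, and all 24 were also called at day 5. None has a description. In 11 of the former and 4 of the latter, mean normalised counts were under 3 in all 8 groups of the other days. No cause was tested.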

How the results depend on the processing

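The 488 genes called at day 5 became 475 and 484 on a log2 scale with pseudocounts of 1 and 5, 473 after shifting libraries to a common median, 360 with array weights, 503 without the variance trend and 470 with the position as a covariate. They fell to 41 with the 6 day 5 libraries alone (30 higher, 11 lower, 2150 at an unadjusted p under 0.05), 190 by limma-voom, 143 when reads were thinned to the smallest library before voom, and 184 over the 13565 genes above the lowest value in all 30 libraries. The last setting tested fewer genes and the first used fewer samples. The cause of the drop was not tested for any of them. The count against the other days was 10 by limma-voom and 1 with the filter on all libraries, that against day 3 was 117, 178 on the log2 scale with a pseudocount of 1 and 138 with the filter, and that against day 8 was 52 by limma-voom and 14 with the filter. Leaving out each pupa in turn gave 311 to 642 genes at day 5, 21 to 199 against the other days, 133 to 495 against day 3 and 137 to 294 against day 8. The difference in position, -0.046, was -0.111 to 0.01 when pupae were left out and turned to 0.056 with a line drawn for each strain separately (exact permutation p = 0.5). Members of the gene lists called were 43, and 24 by limma-voom. Of the 46 called genes that the naming rule took, none changed sign under these settings, and 5 stayed called with the day 5 libraries alone, 24 after thinning, 28 by limma-voom and 33 to 41 without a pupa. Same-numbered pupae of day 5 had deviations correlated at -0.001 to 0.477, with 2 of 3 pairs over 0.1. Pupae of day 5 with other numbers lay at -0.576 to 0.311. The main fit did not take the numbers as pairs, and whether they were pairs was not tested. With a replicate block 515 genes were called at day 5 (269 higher, 246 lower), 39 against the other days, 429 against day 3 and 266 against day 8. Scarce transcripts are limited by depth, as ESM pupae 1 and 2 had the fewest reads of the day.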
